A study of Arabidopsis thaliana with 15 samples.

Results

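Genes that copy DNA and divide cells were followed across 5 groups of Arabidopsis plants (ecotype Col-0), as 38 genes out of the 33977 features in the count tables. The 38 were taken by gene name, with no threshold on a measured value, but with earlier results of these data known. They are the MCM2 to MCM7 helicase genes, PCNA1 and PCNA2, ORC1A and ORC1B, CDC6A, CDT1A, both kinds of ribonucleotide reductase subunit, POLA2, A-, B- and D3-type cyclins, the CDKB kinases, KNOLLE, HINKEL, AUR1, AUR2, CDC20.1 and CDC20.2. All 38 were found in every table. Each group held 3 plants, 15 in all, taken at early bolting, as whole plants by the methods and as whole rosette by the sample labels. None of the plants sequenced carried a transgene. Memory (MM) plants of Gen1 had lost an MSH1-RNAi transgene by segregation and kept slow growth, late flowering and pale leaves. Nonmemory (NM) plants of Gen1 were transgene-null sibs of normal appearance. Gen5 memory plants descended from this memory lineage, so they sample 1 pedigree and not independent losses of the transgene. Wild-type (WT) plants of both generations came from negative events of the RNAi transformation and were raised beside the memory plants. Age in days and the hour at which plants were taken were not given in the sources used here.

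A plant cell that divides first licenses its replication origins in G1, when the origin recognition complex, CDC6 and CDT1 load the ring-shaped MCM helicase onto DNA. In S phase DNA polymerase alpha primes the new strands, PCNA clamps hold the polymerases on DNA, and ribonucleotide reductase supplies the deoxynucleotides. Cyclin-dependent kinases with A- and B-type cyclins and the plant-specific CDKB kinases then drive G2 and mitosis, and KNOLLE and HINKEL build the wall between the daughter cells. E2F transcription factors, held back by the retinoblastoma protein RBR1, are known activators of S-phase genes, and MYB3R factors act on genes of G2 and mitosis through the element AACGG. In rosettes, division is confined to meristems and young leaf tissue, and many leaf cells instead copy their DNA without dividing, the endocycle, which also uses the replication genes.

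Promoters are described first, because 2 kinds of short sequence were present in different shares of the replication and the mitotic genes. In windows of 300 bases, from 250 before the annotated gene start to 50 from it on, an E2F-type octamer (TTTCCCGC, TTTCGCGC, TTTGCCGC or TTTGGCGC, on either strand) was present in 8 of the 15 replication genes (53.3%), in 0 of 20 genes for A- and B-type cyclins, CDKB kinases, mitosis and cytokinesis, and in 1.76% of 27443 protein-coding genes. AACGG, on either strand, was present in 15 of the 20 mitotic genes (75.0%), in 4 of the 15 replication genes (26.7%) and in 24.7% of all promoters, and 11 of the 20 held at least 2 copies, against 4.89% of all. The division was not complete, since the replication gene POLA2 held 1 octamer and 2 copies of AACGG. Of the 3 D3-type cyclin genes, 1 held an octamer and 1 held AACGG. A match describes letters in a window and no more. The sequences below come from the RefSeq annotation of TAIR10.1, the same genome as the TAIR10 build named for the files, and run 5′ to 3′ on the gene's strand over 200 bases, of which the last 30 begin at the gene start. Capitals mark the E2F-type octamer in RNR1 (chr2:9293091-9293290, plus strand) and MCM6 (chr5:18010638-18010837, minus strand) and AACGG in CYCB1;2 (chr5:1861674-1861873, minus strand). TSO2 (chr3:9981591-9981790, minus strand) and PCNA2 (chr2:12651724-12651923, minus strand) are shown because both fell in memory plants, and these windows hold neither set of letters.
RNR1: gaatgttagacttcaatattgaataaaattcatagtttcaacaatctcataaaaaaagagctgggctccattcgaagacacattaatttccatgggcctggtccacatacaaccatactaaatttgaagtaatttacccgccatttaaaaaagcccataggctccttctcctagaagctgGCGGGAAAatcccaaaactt
MCM6: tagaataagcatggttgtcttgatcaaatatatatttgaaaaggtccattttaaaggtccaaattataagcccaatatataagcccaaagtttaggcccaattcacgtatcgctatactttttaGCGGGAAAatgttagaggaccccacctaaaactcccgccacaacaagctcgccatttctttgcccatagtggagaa
TSO2: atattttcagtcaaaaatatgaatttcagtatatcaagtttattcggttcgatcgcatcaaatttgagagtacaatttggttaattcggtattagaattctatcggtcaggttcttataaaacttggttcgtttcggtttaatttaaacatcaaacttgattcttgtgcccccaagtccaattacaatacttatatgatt
PCNA2: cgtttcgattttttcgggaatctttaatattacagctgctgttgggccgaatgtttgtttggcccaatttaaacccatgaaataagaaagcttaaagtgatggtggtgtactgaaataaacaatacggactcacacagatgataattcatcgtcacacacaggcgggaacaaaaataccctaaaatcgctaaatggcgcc
CYCB1;2: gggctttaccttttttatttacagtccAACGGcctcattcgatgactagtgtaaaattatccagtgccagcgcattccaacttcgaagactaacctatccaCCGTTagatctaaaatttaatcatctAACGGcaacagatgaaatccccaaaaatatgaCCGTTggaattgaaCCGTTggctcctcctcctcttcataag

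Each plant had between 77169986 and 79202824 counts on genes. Values are raw read counts scaled by edgeR's TMM method over all 15 plants, called normalized read counts here. A gene was called higher or lower when edgeR's quasi-likelihood test gave a Benjamini-Hochberg adjusted p under 0.05 over all genes tested and an absolute log2 fold change over 0.5. Fold changes are memory over control, and each ± after one is a standard error. Scaling factors were 0.884 to 0.956 in the 6 memory plants and 1.02 to 1.08 in the 9 others, so these libraries differed in composition by group. Summed over 5 mature leaf markers, memory plants had 4163028 to 5054670 normalized read counts and the others 2370891 to 2861788. The part of this difference in the results below was not tested. With edgeR's RLE size factors in place of TMM the same 9 members were called against nonmemory and the same 5 in Gen5. Against Gen1 WT, CDT1A was called higher beside TSO2 lower. RLE, like TMM, takes most genes as unchanged, so this does not show the part of composition. The floral regulator LFY was at 0 in all 15 plants, but the floral markers AG and SEP3 were not. AG had 27.5 to 57.3 normalized read counts in Gen1 memory and 78.6 to 97.6 in Gen1 WT plants. SEP3 had 15.6 to 34.1 and 7.51 to 9.58. Against Gen1 WT, AG was called lower and SEP3 higher, and no floral marker was called against nonmemory or in Gen5. Their part in the results was not tested. The stem cell markers WUS and CLV3 were at 0 in all 15 plants and STM reached 3.12 at most. The other shoot meristem markers were not all low. KNAT6 had 8.99 to 29.98 normalized read counts, and CLV1, a receptor kinase gene, had 3246 to 5357 and made up most of the list's sum of 3270 to 5380. CLV1 had 0.44 (edgeR adjusted p = 0.00189), 0.16 (0.128) and 0.35 (0.0573) against nonmemory, Gen1 WT and Gen5 WT, not called, and its part in the results was not tested. Of the 38 genes, 14 overlap another annotated gene, among them TSO2 and CYCD3;1 on the same strand and MCM7, CDC6A, PCNA2, CDKB2;1 and KNOLLE with a gene on the other strand, and since the library kit does not mark strand, reads of such partners cannot be told apart. In bulk tissue, fewer dividing cells and less RNA per dividing cell cannot be told apart.

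Of the 15 replication genes, 6 were called lower in memory plants against nonmemory sibs, 1 against Gen1 WT and 4 in Gen5, and none was called higher. Of all genes tested, 12.2%, 10.5% and 13.7% were called lower in these comparisons, so 1 of 15 against Gen1 WT was under the background. Of the 20 genes called mitotic here, 2 were called lower, CYCA3;1 and CYCB2;2, and 1 higher against nonmemory. Both counts were under the shares of all genes, 12.2% lower and 11.1% higher. The mitotic set holds all A-type cyclins of the 38, and the type of CYCA3;1 is known to peak around the start of S phase. In the WT comparisons of Gen1 and Gen5 the count of mitotic genes called was 0, where 1 and 2 had an unadjusted p under 0.05 and DESeq2 also called 0. TSO2, which supplies deoxynucleotides, had the largest fall. Against nonmemory, 8 of the 38 genes were called lower (21.1%), against 12.2% of all 19760 genes tested, and 1 was called higher, against 11.1%, or 23.4% of all genes in either direction. Of the 9 called, TSO2, RNR1, POLA2, PCNA2, MCM6 and ORC1B serve replication, and CYCA3;1, CYCB2;2 and CYCA2;1 encode cyclins. Against Gen1 WT only TSO2 was called, lower, 2.63% of the members against a background of 10.5%, and none was called higher, against 9.52% (20% in either direction). Here 8 members had an unadjusted p under 0.05, and DESeq2 called TSO2 lower and no member higher. In Gen5, TSO2, RNR1, PCNA2 and MCM6 were called lower (10.5% against 13.7% of all genes) and CYCD3;2 higher (against 13.3%, or 27% in either direction). The median log2 fold change over the 38 genes was -0.28, -0.06 and -0.25 in these 3 comparisons, against 0.01, -0.01 and 0.01 over all genes tested, and 31, 22 and 30 of the 38 values lay below 0. The comparisons with nonmemory and with Gen1 WT share their memory plants. Since the members were chosen with earlier results known, their shares and medians are descriptions. The share of members called lower was above the background against nonmemory and under it in both WT comparisons, and 2 of these orders turned with 1 plant. Without the second Gen1 memory plant the share against nonmemory was 10.5%, with 11.1% of all genes, and without the third Gen5 memory plant the share in Gen5 was 15.8%, with 14.1% of all genes. The Gen5 order also turned without the first Gen5 memory plant (13.2%, with 12.9% of all genes) and without the third Gen5 WT plant (13.2%, with 12.6%).

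**Figure D1:**
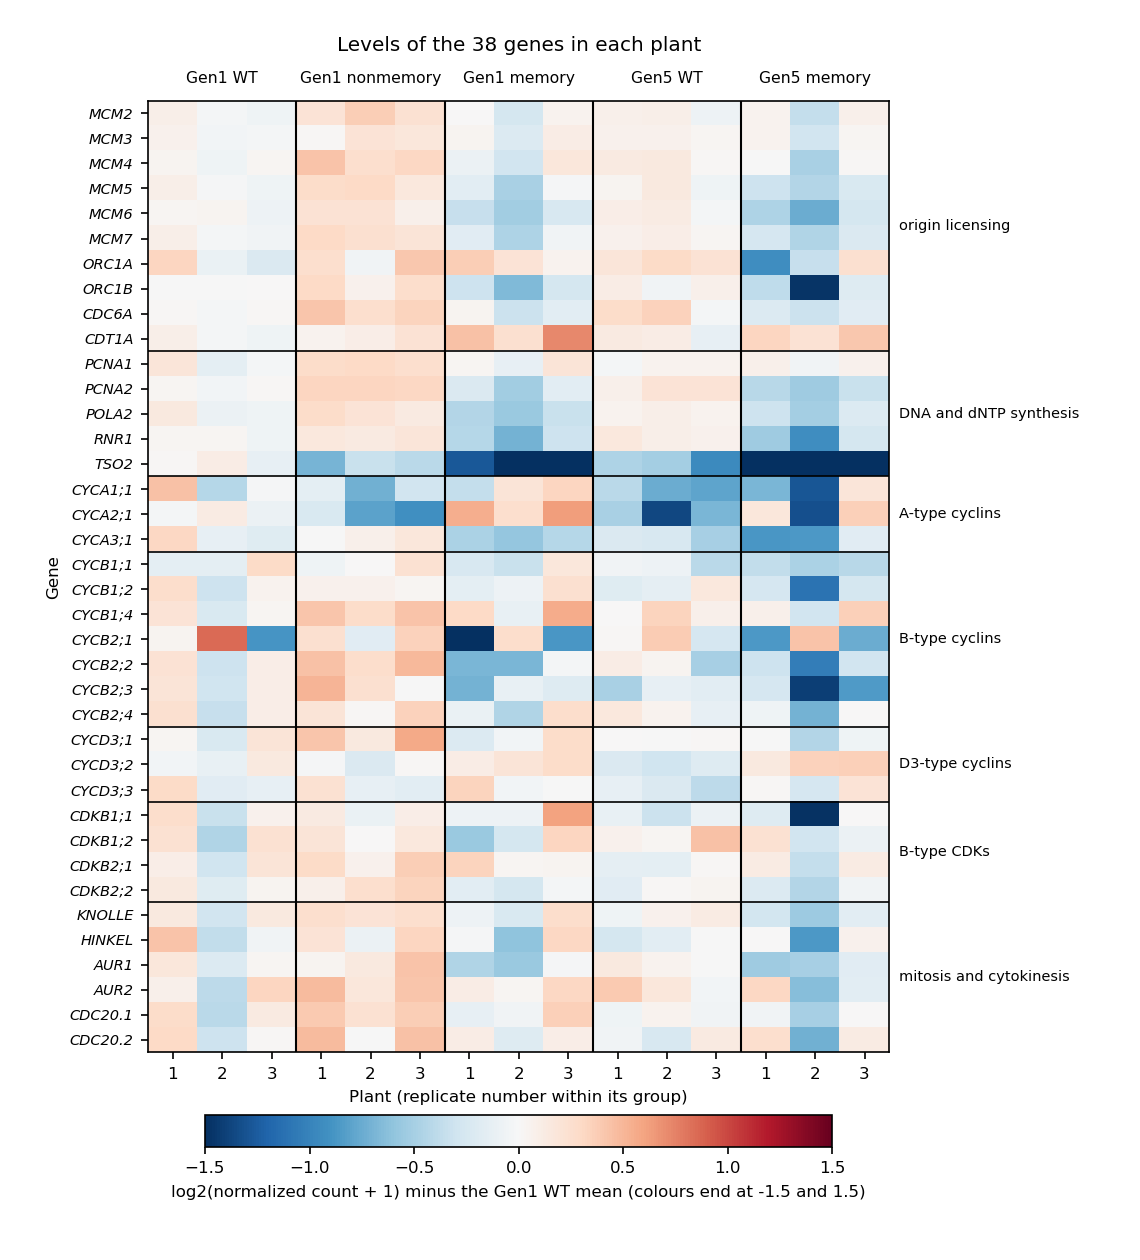
Level of each of the 38 genes in each of the 15 plants, as log2(normalized count + 1) minus the mean of the Gen1 WT plants. Rows are grouped by role and columns by group. The TSO2 row is lower in each of the 6 memory plants than in any of the others, and the second memory plant of Gen5 is the lowest of its group in 32 of the 38 genes.

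Ribonucleotide reductase makes deoxynucleotides from ribonucleotides, and TSO2 (AT3G27060) encodes a small subunit of it. TSO2 had the highest level of the 38 genes per kilobase of exon and the largest fall. In Gen1 memory plants it had 7739, 4081 and 4831 normalized read counts, and in Gen5 memory plants 4089.8, 4426 and 4947. Nonmemory plants had 11540, 14761 and 14082, Gen5 WT plants 13499, 13104 and 9645, and Gen1 WT plants 18819, 20082 and 17180. Every memory plant lay below every other plant, the nonmemory and Gen5 WT plants overlapped, and the Gen1 WT plants lay above all others. Memory means were 41.2% of nonmemory, 29.7% of Gen1 WT and 37.1% of Gen5 WT. TSO2 had log2 differences of -1.27 ± 0.23 (edgeR adjusted p = 0.00451), -1.74 ± 0.23 (0.00151) and -1.42 ± 0.14 (0.000164). TSO2 kept its call in all 3 comparisons in every fit that left out 1 plant and under a fold threshold of 1 log2 unit. TSO2 also differed among the controls. Gen5 WT was called lower than Gen1 WT, -0.64 ± 0.13 (edgeR adjusted p = 0.0108), and nonmemory had -0.48 ± 0.10 against Gen1 WT (adjusted p = 0.02), within the fold threshold.

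RNR1 (AT2G21790), the gene of the large subunit of the same enzyme, was second in level per kilobase. It had 5409, 4447 and 5829.7 normalized read counts in Gen1 memory plants and 5004, 3817 and 6066 in Gen5 memory plants. The 9 control plants ran from 6963 to 8207, with 8122, 7976 and 8207 in nonmemory, 7424, 7393 and 6963 in Gen1 WT and 8079, 7718 and 7560.0 in Gen5 WT. All memory plants were thus below all controls, and the second plant of each memory group was lowest. RNR1 fell by 0.63 on the log2 scale against nonmemory (SE 0.10, edgeR adjusted p = 0.00244) and by 0.64 in Gen5 (SE 0.15, adjusted p = 0.0116). Against Gen1 WT its change of -0.46 ± 0.10 (adjusted p = 0.0131) was within the fold threshold. Without the second Gen5 memory plant the Gen5 change was -0.49 (adjusted p = 0.00344), just within the threshold.

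PCNA2 (AT2G29570) encodes a sliding clamp. Memory plants had 1592, 1284 and 1653 normalized read counts in Gen1 and 1376, 1272 and 1459 in Gen5. Nonmemory plants had 2298, 2299.6 and 2279.8, Gen1 WT plants 1886, 1785 and 1858, and Gen5 WT plants 1939, 2117 and 2116. The memory plants lay below all others, and the nonmemory plants above all others. PCNA2 fell by 0.60 against nonmemory (SE 0.10, edgeR adjusted p = 0.00282) and by 0.58 in Gen5 (SE 0.08, adjusted p = 0.00113), and had -0.28 ± 0.10 against Gen1 WT (adjusted p = 0.0733). Without the second Gen1 memory plant the change against nonmemory was -0.496 (adjusted p = 0.003), just within the fold threshold. Its paralog PCNA1 (AT1G07370) was not called, with -0.23 against nonmemory, 0.04 in Gen1 against WT and 0.02 in Gen5. Whether PCNA1 and PCNA2 differ from each other in their response was not tested.

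POLA2 (AT1G67630), which encodes the B subunit of DNA polymerase alpha, was named after its values were seen. It had 779, 719 and 841 normalized read counts in Gen1 memory plants and 852, 744 and 919 in Gen5 memory plants. Controls had 1277, 1222 and 1158 in nonmemory, 1173, 992 and 1014 in Gen1 WT and 1092, 1119 and 1097 in Gen5 WT. The memory plants were again below all 9 others. POLA2 was called against nonmemory, -0.64 ± 0.09 (edgeR adjusted p = 0.00126), and stayed within the fold threshold against Gen1 WT (-0.43, adjusted p = 0.0153) and in Gen5 (-0.39, adjusted p = 0.0148). Of the 5 genes of DNA and deoxynucleotide synthesis, 4, 1 and 3 were called lower in the 3 comparisons, with median log2 fold changes of -0.63, -0.43 and -0.58. As shares these were 80%, 20% and 60%, with 12.2%, 10.5% and 13.7% of all genes.

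**Figure D2:**
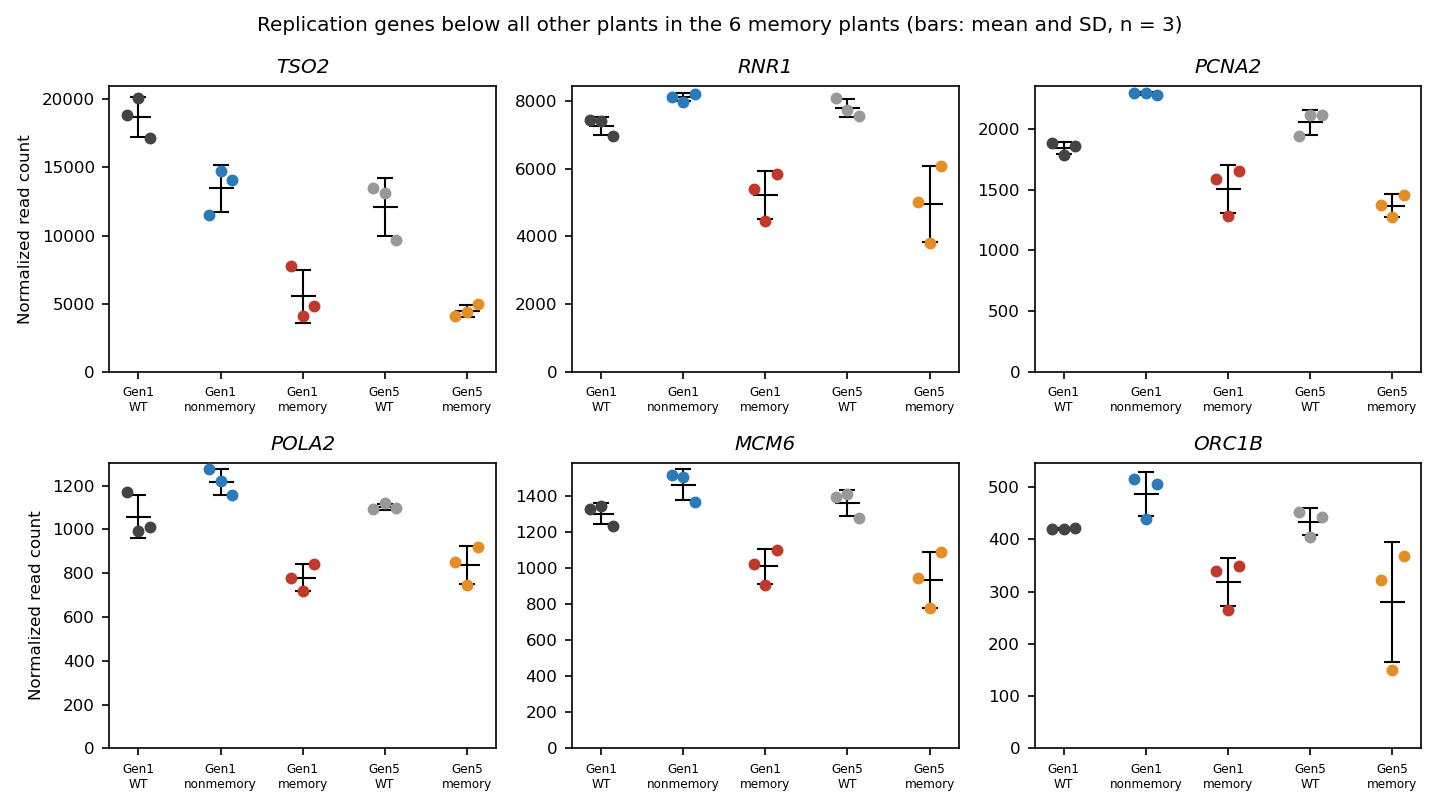
Normalized read count of the 6 members whose 6 memory plants all lay below the 9 other plants, a choice made after the values were seen. Points are plants, and bars give mean and SD (n = 3) on axes that start at 0. In TSO2 the memory plants sit between 4081 and 7739 and the others between 9645 and 20082.

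The 6 genes of that plot, TSO2, RNR1, PCNA2, POLA2, MCM6 and ORC1B, were those of the 38 in which memory plants and the others did not overlap, all lower in memory. This count is near the background, since 14% of 19547 genes showed no overlap in this direction, and 12.1% in the other, which no member showed. Taking the comparisons singly, 17 members lay wholly below nonmemory (27.6% of all genes did) and 3, CDT1A and 2 cyclin genes, wholly above it (25.5%). Below Gen1 WT lay 7 members (26.5%) and above it 2 (23.3%). In Gen5, 13 lay below WT (28.9%), KNOLLE and AUR1 among them, and 2 lay above it (26.9%), CDT1A and a D3-type cyclin gene. As shares of the 38, only those below nonmemory and below Gen5 WT exceeded the background.

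Among the 10 origin licensing genes, 2 were called lower beside nonmemory, 0 beside Gen1 WT and 1 in Gen5. These shares of 20%, 0% and 10% stood beside 12.2%, 10.5% and 13.7% of all genes, so only the first was above its background. Median log2 fold changes were -0.42, -0.09 and -0.36. MCM6 (AT5G44635), a subunit of the replicative helicase, was called in 2 comparisons. It had 1023, 907 and 1102 normalized read counts in Gen1 memory plants and 945, 778 and 1089 in Gen5 memory plants, against 1518, 1508 and 1369 in nonmemory, 1328, 1345 and 1237 in Gen1 WT and 1394, 1413 and 1281 in Gen5 WT. All memory plants were below all others. MCM6 fell by 0.53 against nonmemory (SE 0.09, edgeR adjusted p = 0.00376) and by 0.53 in Gen5 (SE 0.13, adjusted p = 0.0112), and had -0.36 ± 0.09 against Gen1 WT (adjusted p = 0.0228). Both calls were lost without the second memory plant of the group, with log2 fold changes of -0.46 and -0.42.

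MCM7 (AT4G02060), the licensing gene with the highest mean count, had 1696, 1387 and 1852 normalized read counts in Gen1 memory plants and 1611, 1397 and 1642 in Gen5 memory plants. It had 2349, 2264 and 2185 in nonmemory, 2028, 1877 and 1842 in Gen1 WT and 2008, 2057 and 1958 in Gen5 WT. Memory plants were below nonmemory and Gen5 WT plants but overlapped Gen1 WT plants. Its log2 fold changes of -0.46, -0.21 and -0.36 were not called, although 2 of them had edgeR adjusted p-values under 0.05 (0.012 and 0.0101 against nonmemory and in Gen5). Against nonmemory MCM2, MCM4 and MCM5 had -0.32, -0.39 and -0.45 with adjusted p-values of 0.0332, 0.0347 and 0.0209, and MCM3 had -0.14 with 0.287. In Gen5, MCM5 had -0.36 (adjusted p = 0.0148), and MCM2, MCM3 and MCM4 had -0.08, -0.10 and -0.23 with adjusted p-values from 0.215 to 0.641. Against Gen1 WT none of these 4 exceeded 0.20 in size.

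ORC1B (AT4G12620), a gene of the largest origin recognition subunit, had 339.6, 265 and 349.5 normalized read counts in Gen1 memory plants and 323, 151 and 368 in Gen5 memory plants, against 404 to 515 in the 9 others. It was called lower against nonmemory, -0.61 ± 0.14 (edgeR adjusted p = 0.0115), a call lost without the second Gen1 memory plant (-0.49, adjusted p = 0.0254). In Gen5 it had -0.62 ± 0.29 (adjusted p = 0.128), and without the second memory plant, at 151 counts, -0.33 (adjusted p = 0.0517). Its paralog ORC1A (AT4G14700) had 26.0 to 66.7 normalized read counts over the 15 plants and log2 fold changes of 0.01, 0.21 and -0.49, none called. CDC6A (AT2G29680), a loader of the helicase, had -0.47 and -0.43 against nonmemory and in Gen5 (adjusted p = 0.0165 and 0.0294), within the fold threshold.

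CDT1A (AT2G31270), the other loader, had positive values. It had 684, 597 and 830.1 normalized read counts in Gen1 memory plants and 633, 586 and 672 in Gen5 memory plants. Nonmemory plants had 525, 543 and 589, Gen1 WT plants 536, 496 and 484 and Gen5 WT plants 554, 545 and 462. Within each comparison the memory plants were above the controls, and the lowest memory plant lay just under the highest nonmemory plant. Its log2 fold changes of 0.35, 0.49 and 0.29 were not called (edgeR adjusted p = 0.0675, 0.0265 and 0.0758), since they did not pass the test or did not exceed the fold threshold. With RLE size factors the change against Gen1 WT was 0.501 (adjusted p = 0.0255) and was called, as it also was without the first or the second Gen1 memory plant.

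Among the 3 A-type cyclin genes, CYCA3;1 and CYCA2;1 were called in opposite directions against nonmemory. Each is 33.3% of the 3, with 12.2% of all genes called lower and 11.1% higher. CYCA3;1 (AT5G43080), an A3-type cyclin whose type is known from tobacco and Arabidopsis to peak around the start of S phase, had 215, 199 and 221 normalized read counts in Gen1 memory plants. It had 295, 315 and 334 in nonmemory, 369, 272 and 262 in Gen1 WT, 256, 251 and 211 in Gen5 WT and 163, 163 and 265 in Gen5 memory plants. The Gen1 memory plants lay below both Gen1 controls, and the Gen5 groups overlapped because of the third memory plant. CYCA3;1 fell by 0.57 against nonmemory (SE 0.12, edgeR adjusted p = 0.00892), and had -0.50 ± 0.17 (0.0539) against Gen1 WT and -0.27 ± 0.22 (0.368) in Gen5. CYCA2;1 (AT5G25380) was scarce, at 25.4 to 33.0 normalized read counts in Gen1 memory, 10.6 to 17.9 in nonmemory, 19.7 to 23.0 in Gen1 WT, 7.59 to 14.8 in Gen5 WT and 7.87 to 27.2 in Gen5 memory plants. It was called higher against nonmemory, 1.16 ± 0.34 (adjusted p = 0.0306), a call lost with DESeq2 (adjusted p = 0.0506) and in 4 of 6 fits that left out 1 plant. The remaining A-type gene had log2 fold changes of 0.45, 0.05 and 0.19, none called.

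Of the 7 B-type cyclin genes, which act at the entry into mitosis, CYCB2;2 alone was called, lower and only against nonmemory (14.3%, with 12.2% of all genes). CYCB1;2 (AT5G06150), the most abundant of them, had 329, 345 and 430.5 normalized read counts in Gen1 memory, 379.8, 379.7 and 370.5 in nonmemory, 438, 292 and 377 in Gen1 WT, 322, 331 and 406 in Gen5 WT and 307, 169 and 303 in Gen5 memory plants. The Gen1 groups overlapped, while in Gen5 the memory plants lay below WT. It had log2 differences of -0.03 ± 0.13, 0.01 ± 0.18 and -0.43 ± 0.24, and none was called (edgeR adjusted p = 0.878, 0.98 and 0.185). CYCB2;2 (AT4G35620) had 70.8, 70.8 and 112 in Gen1 memory and 155, 138 and 161 in nonmemory plants, a log2 fold change of -0.83 ± 0.23 (adjusted p = 0.0234) whose call was lost in 5 of 6 fits that left out 1 plant. The median over the 7 was -0.25, -0.13 and -0.36 in the comparisons with nonmemory, Gen1 WT and Gen5 WT. All 7 values lay below 0 against nonmemory and in Gen5, and 5 against Gen1 WT.

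None of the 4 CDKB genes, which encode kinases particular to plants that act in G2 and mitosis, was called in a memory comparison. Of all genes 23.4%, 20% and 27% were called in either direction, and a count of 0 among so few genes does not set them apart. CDKB2;1 (AT1G76540) had 615, 497 and 504 normalized read counts in Gen1 memory, 597, 511 and 632 in nonmemory, 523, 397 and 559 in Gen1 WT, 445, 442 and 493 in Gen5 WT and 532, 381 and 531 in Gen5 memory plants. The memory and control plants overlapped in each comparison, with log2 fold changes of -0.10 ± 0.13, 0.14 ± 0.16 and 0.08 ± 0.15. CDKB2;2 had -0.37 against nonmemory (edgeR adjusted p = 0.0616).

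The 6 genes of mitosis and cytokinesis were also not called, and 0 of 6 likewise does not set them apart beside the same shares of all genes. KNOLLE (AT1G08560), the syntaxin of the forming cell plate, had 505, 455 and 641 normalized read counts in Gen1 memory, 633, 617 and 635 in nonmemory, 588, 437 and 589 in Gen1 WT, 508, 557 and 582 in Gen5 WT and 439.9, 366 and 478 in Gen5 memory plants. Gen5 memory plants lay below Gen5 WT, while Gen1 memory plants overlapped both Gen1 controls, nonmemory through the third memory plant alone. It had log2 differences of -0.23 ± 0.13, -0.00 ± 0.17 and -0.35 ± 0.13, and none was called (edgeR adjusted p = 0.208, 0.996 and 0.0676). The Aurora kinase gene AUR1 (AT4G32830) came closest to a call, with -0.53 ± 0.20 against nonmemory and -0.45 ± 0.17 in Gen5 (adjusted p = 0.0671 and 0.0644). HINKEL, a kinesin gene, the second Aurora gene AUR2, and CDC20.1 and CDC20.2, whose proteins activate the ubiquitin ligase that ends mitosis, had values between -0.30 and 0.14. Of the exon windows of 100 bases, 25.03% in CDC20.1 and 27.75% in CDC20.2 occur elsewhere in the genome, so their counts of uniquely mapped reads are uncertain. Over the 20 mitotic genes, the 95% interval of the log2 fold change stayed within 1 unit of 0 for 15, 17 and 14 genes in the 3 comparisons, so larger changes lay outside the intervals of these genes and inside those of the rest.

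The D3-type cyclins, G1 cyclins that respond to cytokinin and sustain division in young leaves, gave 1 call, upward and in Gen5. This was 1 of 3 genes (33.3%), with 13.3% of all genes called higher. CYCD3;2 (AT5G67260) had 971, 1115 and 1121 normalized read counts in Gen5 memory and 754, 711 and 769 in Gen5 WT plants, without overlap. In Gen1 it had 947, 1001 and 1064 in memory, 868, 754 and 888 in nonmemory and 853, 813 and 974 in WT plants, with an overlap between memory and WT only. This gene rose by 0.53 in Gen5 (SE 0.09, edgeR adjusted p = 0.00277), and had 0.27 (0.0541) against nonmemory and 0.20 (0.146) against Gen1 WT. The Gen5 value was so near the fold threshold that the call was lost without the second memory plant, the third memory plant or the second WT plant. The other 2 genes of this group had values from -0.36 to 0.25 over the 3 comparisons, and none was called.

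**Figure D3:**
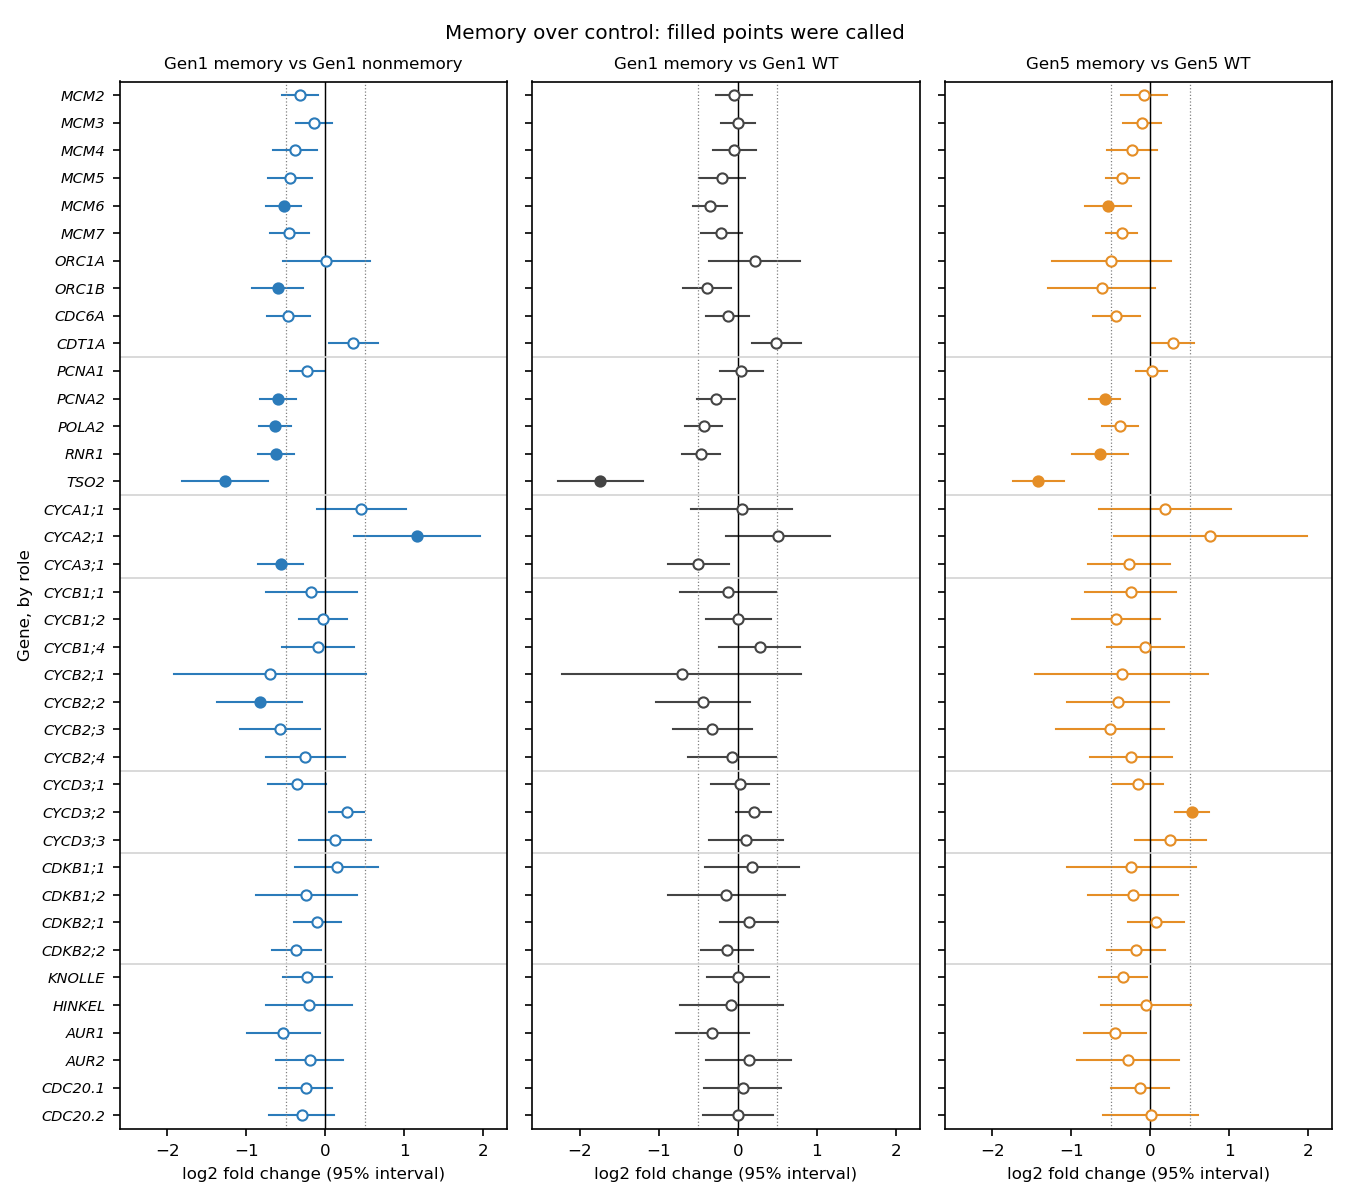
Log2 fold change of each of the 38 genes with its 95% interval in 3 comparisons, memory over control. Filled points were called and dotted lines mark the fold threshold of 0.5. The TSO2 interval lies below 0 in all 3 panels, and most intervals of B-type cyclins, CDKB kinases and mitosis genes cross 0.

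The 9 control plants differed from each other as well. Between nonmemory and Gen1 WT plants, edgeR called 0 of the 38 genes, against 7.71% of all 19827 genes tested (2.82% higher and 4.89% lower), with 12 members at an unadjusted p under 0.05 and 0 called by DESeq2. The values leaned upward in nonmemory, with 32 of 38 above 0 and a median log2 fold change of 0.20, against -0.00 over all genes. Of the 15 replication genes 14 lay above 0, and MCM2, MCM4, MCM5, MCM7, CDC6A and PCNA2 were higher by 0.24 to 0.33 with edgeR adjusted p-values under 0.05, within the fold threshold. The comparisons of nonmemory with WT and with memory share the nonmemory plants. Between Gen5 WT and Gen1 WT, edgeR called only TSO2, against 10.7% of 19856 genes (4.69% higher and 6.05% lower), and the median of the 38 was 0.01.

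No single member was found to differ between the memory plants of the 2 generations. Between Gen5 and Gen1 memory plants edgeR called 0 of 37 members tested (CYCB2;1 was too low), against 0% of 19716 genes, and no member had an unadjusted p under 0.05, while 353 of all genes did. DESeq2 called 6 genes, none of them a member. The values of the members leaned downward in Gen5, with 34 of 37 below 0 and a median log2 fold change of -0.14, against -0.01 over all genes. Without the second Gen5 memory plant this median was -0.01. The difference of the WT comparisons between generations, tested as an interaction on 12 plants, called 0 of 38 members, against 6.03% of 20195 genes (2.65% higher and 3.37% lower), with 2 members at an unadjusted p under 0.05 and 0 called by DESeq2. Of the 38 differences 28 lay below 0, with a median of -0.15 against -0.01 over all genes. Without the second Gen5 memory plant the median of the members was -0.01. For TSO2 the difference was 0.31 ± 0.29 (edgeR adjusted p = 0.597), with a 95% interval from -0.31 to 0.94. A call in 1 generation and not in the other, as for CYCD3;2 (difference 0.32 ± 0.13, adjusted p = 0.177), was thus not shown to differ between them.

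The levels were also averaged over genes within each plant. Relative to the Gen1 WT mean, the mean log2 level of the 15 replication genes was -0.17, -0.46 and -0.15 in Gen1 memory plants and -0.37, -0.59 and -0.20 in Gen5 memory plants. It was 0.19, 0.17 and 0.19 in nonmemory, 0.08, -0.03 and -0.05 in Gen1 WT and 0.06, 0.08 and -0.04 in Gen5 WT plants. All memory plants lay below all others in this mean. For the 20 mitotic genes the memory plants had -0.21, -0.19 and 0.14 in Gen1 and -0.19, -0.72 and -0.11 in Gen5, and the 9 others ran from -0.22 to 0.20, so the groups overlapped. These means are descriptions over genes chosen with results known, and no test was made of them.

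**Figure D4:**
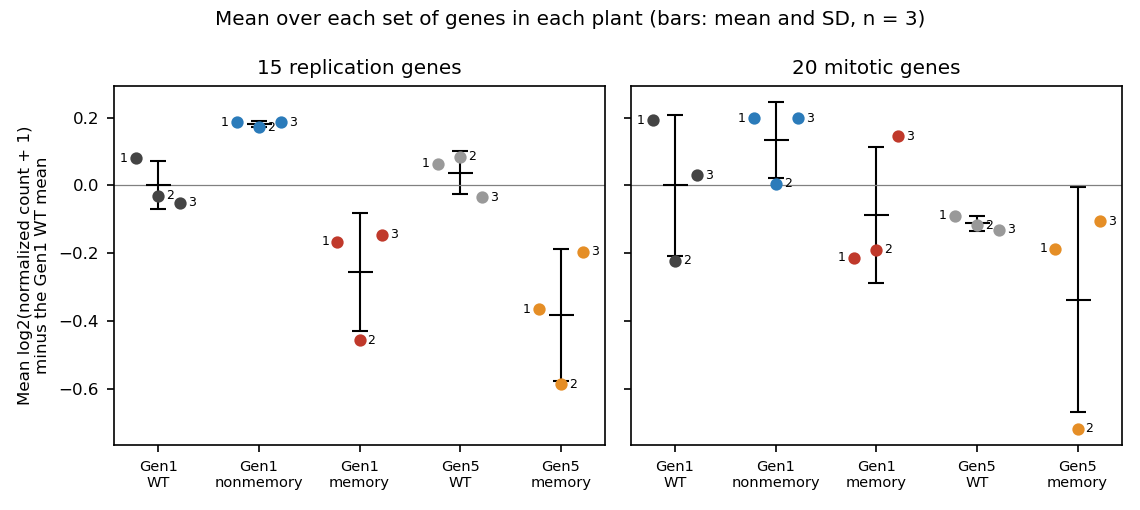
Mean of log2(normalized count + 1) over the 15 replication genes and over the 20 mitotic genes in each plant, relative to the Gen1 WT mean. Points are plants with their replicate number, and bars give mean and SD (n = 3). In the left panel the memory plants end at -0.15, below every other plant, and in the right panel they reach 0.14.

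The spread between plants of a group differed by gene set. The median SD of log2 levels between the 3 plants was 0.42 over mitotic members, 0.15 over replication members and 0.17 over all genes in Gen5 memory. In Gen1 WT these medians were 0.28, 0.07 and 0.10. Much of this spread lay in single plants. The second Gen5 memory plant was the lowest of its group in 32 of 38 members (84.2%, against 40.4% of all genes), the second Gen1 memory plant in 28 (73.7% against 31.4%) and the second Gen1 WT plant in 27 (71.1% against 28.7%). Without the second Gen1 memory plant, 4 members were called lower against nonmemory in place of 8, and without the third, 12. Without the second Gen5 memory plant 2 members, TSO2 and PCNA2, were called lower in Gen5 in place of 4, and the median of the 38 moved from -0.25 to -0.11. Without the second Gen1 memory plant the median against Gen1 WT turned from -0.06 to 0.06. Without the first Gen1 WT plant it was 0.01.

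Further genes of the cell cycle, taken as 5 lists of 75 genes, of which 74 were tested, gave the wider setting. Of 20 other replication genes, 11 were called lower beside nonmemory, 5 beside Gen1 WT and 13 beside Gen5 WT, where 12.2%, 10.5% and 13.7% of all genes were, and none was called higher. The median log2 fold changes of this list were -0.58, -0.34 and -0.58, and 20, 18 and 19 of the 20 values lay below 0. In the same windows 8 of these 20 promoters held an E2F-type octamer. CDC45 (AT3G25100), which joins MCM and GINS in the active helicase, had 219, 129 and 272 normalized read counts in Gen1 memory and 174, 101 and 248 in Gen5 memory plants, against 423 to 554 in the 9 others. It had log2 differences of -1.16, -1.33 and -1.502 (edgeR adjusted p = 0.00949, 0.00626 and 0.00428). ORC3, the GINS subunit gene PSF1 and FAS1, a subunit of the chromatin assembly factor CAF-1, were also called lower in all 3 comparisons, by 0.53 to 0.88. Against Gen1 WT the calls of ORC3 and FAS1 were lost without the second Gen1 memory plant (-0.42 and -0.39) and without the second Gen1 WT plant (-0.51 each, adjusted p = 0.0618 and 0.0599).

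Of 16 other mitotic genes, 2 were called lower in each comparison and none higher, with medians of -0.21, 0.01 and -0.30. This share of 12.5% was near the 12.2%, 10.5% and 13.7% of all genes called lower. CYCA1;2 (AT1G77390), an A-type cyclin known for its role in meiosis, was called in all 3. It had 82.0 to 86.5 normalized read counts in Gen1 memory and 69.3 to 98.5 in Gen5 memory plants, against 411 to 557 in nonmemory, 167 to 275 in Gen1 WT and 294 to 385 in Gen5 WT. It had log2 differences of -2.53, -1.38 and -1.96 (edgeR adjusted p = 6.38e-05, 0.00293 and 0.000167), and nonmemory plants exceeded Gen1 WT by 1.14 (adjusted p = 0.00927).

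Of 15 regulators, 1 was called higher in each comparison (6.67%, with 11.1%, 9.52% and 13.3% of all genes), and 1, 3 and 0 lower (6.67%, 20% and 0%, with 12.2%, 10.5% and 13.7% of all genes). The atypical E2F gene DEL2 (AT5G14960) rose by 1.01, 1.83 and 1.62 (edgeR adjusted p = 0.00299, 0.000457 and 0.000117). It had 475 to 667 normalized read counts in Gen1 memory and 523 to 658 in Gen5 memory plants, and 135 to 299 in the others. The activator gene E2FB fell by 0.62 and 0.70 against the Gen1 controls and had -0.46 in Gen5 (adjusted p = 0.0394), E2FA had -0.18, 0.03 and 0.04, and E2FC had -0.31, -0.28 and -0.37, all within the fold threshold. RBR1 (-0.20, -0.16 and -0.22) and the main kinase gene CDKA;1 (-0.28, -0.08 and -0.33) were not called. Of 17 genes for CDK inhibitors and the endocycle, 1, 1 and 4 were called higher and 1, 2 and 1 lower in the comparisons in the same order. As shares these were 5.88%, 5.88% and 23.5% higher and 5.88%, 11.8% and 5.88% lower, so beside the same backgrounds the higher share in Gen5 was above and the others were under or near them. CCS52A2, an activator of the anaphase-promoting complex that promotes the endocycle, rose in all 3, by 0.56, 0.62 and 1.08, the first a call lost without the second Gen1 memory plant (0.47) and without the second nonmemory plant (0.49). Of 7 other D-type cyclin genes 6 were tested, and 1 of them was called higher in each comparison (16.7%). None was called lower in the Gen1 comparisons and 1 was in Gen5 (16.7%), where the lowest value was -1.15. The gene that rose was CYCD1;1, a further G1 cyclin gene, by 0.67, 0.92 and 1.22. Its call against nonmemory was lost without the third Gen1 memory plant (0.45), the second nonmemory plant (0.56, adjusted p = 0.0769) or the third nonmemory plant (0.71, adjusted p = 0.0542). Of 5 markers of growing young leaves, the growth regulators GRF1 and GRF2 were called higher in all 3 comparisons, by 0.90 to 1.46. ANT, which sustains growth of young organs, had -0.15, 0.11 and -0.10, and AN3, a coactivator of leaf cell division, had 0.63, 0.96 and 0.28, none called, and GRF5 was at 0 or near it and not tested. The sum over the 5, of which GRF1 was the largest part in memory plants, was 1792 to 2241 normalized read counts in memory plants and 1019 to 1356 in the others. Of the stomatal lineage markers tested, 2 of 6, 0 of 4 and 1 of 3 were called higher in the 3 comparisons, with 11.1%, 9.52% and 13.3% of all genes, and none lower. Their sum, of which FAMA was the largest part, was 1109 to 1512 normalized read counts in memory plants and 870 to 1294 in the others. The part of young-leaf tissue and of the stomatal lineage in the values of the cell cycle genes was not tested.

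**Figure D5:**
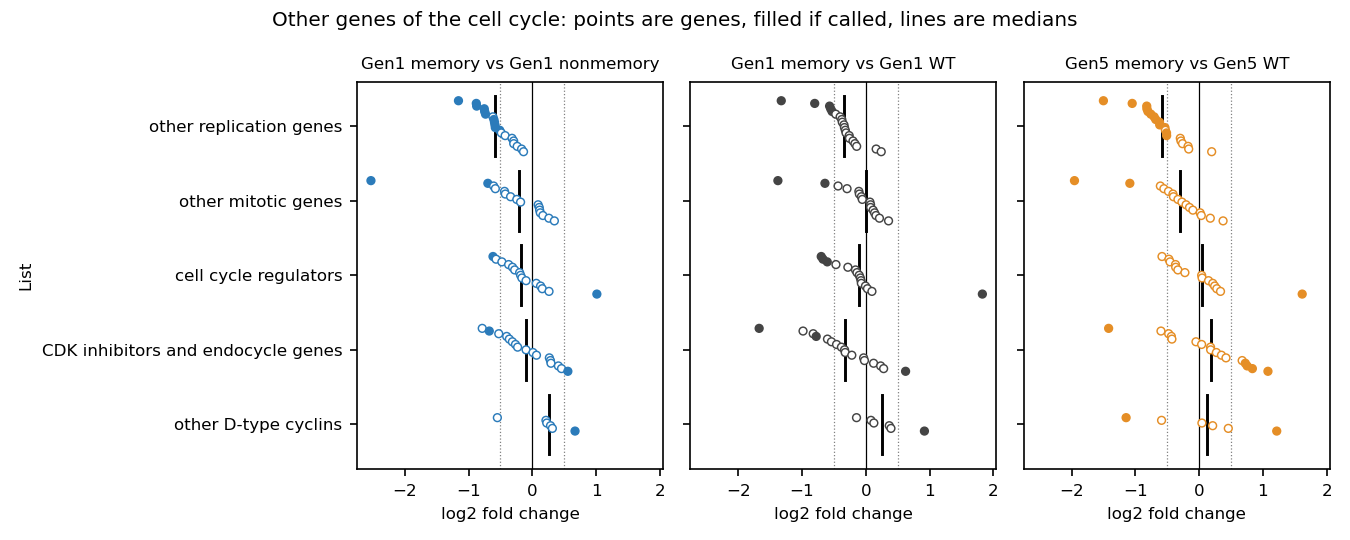
Log2 fold changes of the 74 further cell cycle genes tested, by list, in 3 comparisons of memory over control. Points are genes, filled where called, black lines are list medians and dotted lines mark 0.5. The other replication genes lie mostly left of 0, with medians of -0.58, -0.34 and -0.58, CYCA1;2 reaches -2.53 and DEL2 1.83.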

How the data were processed

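The authors aligned 150-base paired reads of whole plants to TAIR10 with STAR 2.7.0a and counted uniquely mapped reads per gene with QoRTs 1.3.0, and the deposited values are these raw counts, 1 table a plant. Lines that name no gene (0.879 to 1.08% of counts) were left out. Here counts were tested pairwise with edgeR 4.0.16 (R 4.3.3) by the quasi-likelihood test after TMM scaling and filterByExpr, with Benjamini-Hochberg adjustment over all genes tested, a threshold of 0.05 on adjusted p and, except for the interaction, 0.5 on absolute log2 fold change. DESeq2 1.42.0, RLE size factors, other filters and thresholds, a fit of all 15 plants, a replicate block and leaving out each plant were alternatives. The members and lists were chosen with earlier results of these data known. Members named in full were called in at least 2 of 3 memory comparisons or had the highest mean count of their role list, and POLA2, ORC1B, CDT1A, CDC6A, ORC1A, PCNA1, CYCA2;1, CYCB2;2 and AUR1 were chosen after their values were seen. Genes outside the 38 were named where called the same way in all 3 memory comparisons, with RBR1, E2FA, E2FB, E2FC and CDKA;1 in any case, and GRF1 and GRF2 after their values were seen. Levels over lists are means of log2(normalized count + 1). The labels do not say whether plants were grown or harvested apart in time, so p-values measure only the spread between these plants. The fits were tested on simulated data.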

Additional observations from a re-analysis of the deposited data

Results flagged for a closer look

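None of the 38 genes was called for a difference in memory effect between generations. In the further cell cycle lists 5 genes were called by edgeR's interaction test, in which 6.03% of all genes passed an adjusted p of 0.05. All 5 had a higher memory effect in Gen5 than in Gen1. The difference on the log2 scale was 0.93 for MYB3R5 (adjusted p = 0.0356), a MYB3R factor of the repressor type, 1.21 for KRP1 (0.00208) and 0.74 for KRP2 (0.0167), CDK inhibitors of the KRP family, and 0.75 for SMR1 (0.035) and 1.21 for SMR2 (0.0484), CDK inhibitors of the SIAMESE-related family. Against WT, KRP1 had -0.38 in Gen1 and was called at 0.83 in Gen5, KRP2 had -0.02 and was called at 0.72, and MYB3R5 was called at -0.60 and had 0.33. SMR1 had -0.33 and 0.42, and SMR2 -0.54 and 0.67, none called. The WT plants differed too. Gen5 WT was called lower than Gen1 WT by 1.00 for MYB3R5, 1.01 for KRP1, 0.63 for KRP2 and 0.71 for SMR2, and had -0.40 for SMR1. The interaction is the difference between Gen5 and Gen1 memory plants minus that between Gen5 and Gen1 WT plants, so these WT differences enter it directly. Between the memory groups edgeR called 0 of 19716 genes. There the 17 genes for CDK inhibitors and the endocycle ran from -0.32 to 0.51 and the 15 regulators from -0.30 to 0.16. The cause of the WT differences was not tested.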

How the results depend on the processing

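Counts of the 38 genes called moved by more than 1.5 times under these alternatives. Against nonmemory (1 higher, 8 lower), 0 were higher with DESeq2, without a filter on low counts and at an adjusted p under 0.01, and 1 was lower past a fold of 1 and 13 with no fold threshold. Against Gen1 WT (0 higher, 1 lower), 1 was higher with RLE size factors and with no fold threshold, and 2 were lower with all 15 plants in one fit and 4 with no fold threshold. In Gen5 (1 higher, 4 lower), 0 were higher past a fold of 1, and 2 were lower at an adjusted p under 0.01, 1 past a fold of 1 and 8 with no fold threshold. Between nonmemory and Gen1 WT, 6 were higher and 1 lower with no fold threshold. Between Gen5 WT and Gen1 WT (1 lower), 2 were lower with DESeq2 and 0 at an adjusted p under 0.01 and past a fold of 1.

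With 1 plant left out, 0 to 1 were higher and 4 to 12 lower against nonmemory, 0 to 1 and 1 to 2 against Gen1 WT, and 0 to 1 and 2 to 6 in Gen5, and 0 to 1 lower for nonmemory against Gen1 WT and 0 to 2 for Gen5 WT against Gen1 WT. Values near 0 changed sign. CYCB1;2 against Gen1 WT was -0.00403 with all 15 plants, and KNOLLE was 0.012 with RLE and 0.011 with DESeq2. With 1 plant left out CYCB1;2 ran from -0.15 to 0.041 against nonmemory and -0.13 to 0.15 against Gen1 WT, KNOLLE from -0.15 to 0.11, E2FA from -0.032 to 0.097 against Gen1 WT and -0.019 to 0.096 in Gen5, and CDKB2;1 from -0.011 to 0.21 in Gen5. Of 1214 values of single genes under an alternative, 1114 kept direction and call, 64 lost the call, 18 gained it and 18 changed sign. The cause was not tested.

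Replicate numbers were not taken to pair the plants, since in no comparison did all 3 correlations of deviations between plants of the same number exceed 0.1. Their mean was 0.21 for Gen1 memory with Gen1 WT (-0.11 for other numbers) and 0.29 for Gen5 WT with Gen1 WT (-0.14), with 4 of 6 plants in each best correlated with their own number, and -0.13 to 0.07 elsewhere. The second plant was lowest most often in 4 of 5 groups, in 20 to 32 of the 38 genes. With a replicate block 0 members were higher and 8 lower against nonmemory, 2 were lower in Gen5 WT against Gen1 WT, and no other count of members changed. The 3 plants a group limit the detection of small changes most in the scarce mitotic genes.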
